A study of Mus musculus with 6 samples.

Results

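The genes described are 8 receptors of the tumour necrosis factor (TNF) receptor superfamily that B cells can carry: Tnfrsf13c, Tnfrsf13b, Tnfrsf17, Cd40, Cd27, Tnfrsf1a, Tnfrsf1b and Fas. They were picked by symbol as members of the family, and all 8 had a row among the 24885 rows of the count table. Of these, 6 had a count in at least 1 library and 5 had enough counts to be tested. The samples were mouse Eµ-Myc lymphoma cells, a culture from tumours driven by a Myc transgene active in the B lineage. All of them carried a tamoxifen-inducible Cre (Cre-ERT2) and floxed alleles (fl/fl) of the miR-17~92 microRNA cluster, and all were kept on irradiated Ink4a-null mouse embryonic fibroblasts for 48 hours before RNA was taken. The del group, labelled del17-92, held 3 libraries of cells that had been given 250 nM 4-hydroxytamoxifen (4-OHT) and then subcloned to obtain cells without the cluster. The fl group, labelled floxed, held 3 libraries of cells that kept it. How many subclones the del libraries stand for is not stated, so deletion, 4-OHT and subcloning cannot be told apart. Whether the 3 del or the 3 fl libraries stand for separate cultures is not stated, so p-values measure only the spread between these libraries, which may be technical.

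Receptors of this superfamily are membrane proteins that bind trimeric ligands and pass the signal on through TRAF adaptors to NF-kB and MAP kinases or, where the tail holds a death domain, through TRADD and FADD to caspase-8. In B cells BAFF and APRIL keep cells alive and guide class switching through Tnfrsf13c, Tnfrsf13b and Tnfrsf17, CD40 ligand on T cells acts through Cd40, and CD70 acts through Cd27. TNF signals through Tnfrsf1a, which has a death domain, and Tnfrsf1b, which has none, and Fas ligand triggers apoptosis through Fas.

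The microRNAs whose loss the study set out to examine are shown because the 3' untranslated regions (UTRs) of the receptors were searched for their seed sites. Their mature sequences, from RefSeq on GRCm38.p6, lie on the plus strand between chr14:115043684-115044496, and the capitals mark the seed, bases 2 to 8.
miR-17-5p: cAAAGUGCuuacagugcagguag
miR-20a-5p: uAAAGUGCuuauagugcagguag
miR-18a-5p: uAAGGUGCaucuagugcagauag
miR-19a-3p: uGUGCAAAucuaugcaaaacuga
miR-19b-3p: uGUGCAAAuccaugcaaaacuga
miR-92a-3p: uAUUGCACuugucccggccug
miR-17-5p and miR-20a-5p share 1 seed and miR-19a-3p and miR-19b-3p share another, which leaves 4 seed families. In the longest annotated 3' UTR of each receptor (GENCODE M21, GRCm38), 9186 bases in all, none of the 4 sites pairing with bases 2 to 8 was found on the transcript strand. The letters searched were GCACTTT for the family of miR-17-5p and miR-20a-5p, GCACCTT for that of miR-18a-5p, TTTGCAC for that of miR-19a-3p and miR-19b-3p, and GTGCAAT for that of miR-92a-3p. Among the 9734 tested genes with such a UTR, 33.9% held at least 1 of them. The share was 49.6% among UTRs within 25% of the length of the Tnfrsf1b UTR (2324 bases), 44.7% at the length of Cd40 (2035 bases), 39.8% at that of Tnfrsf13b (1730 bases), 33.9% at that of Tnfrsf13c (1355 bases) and 13.0% at that of Tnfrsf1a (490 bases). It was 3.81% at the length of Tnfrsf17 (116 bases), 11.5% at that of Fas (448 bases) and 19.5% at that of Cd27 (688 bases). The UTR these cells use may differ from the longest annotated one.

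The shorter type of site, which pairs with bases 2 to 7 and has an A after it, occurred 2 times among the 8 UTRs. Both matches were to the miR-19a/b site TTGCACA in the last exon (exon 10) of Tnfrsf1b, a receptor that was higher in del. The transcript strand of each is printed with the match in capitals.
Tnfrsf1b, chr4:145213888-145213894, minus strand: gtacccagagcTTGCACAttttctagtct
Tnfrsf1b, chr4:145213528-145213534, minus strand: acatcacattcTTGCACAcacactcacat
They start at bases 1893 and 2253 of a UTR of 2324 bases. Of UTRs of similar length 19.8% held this 7-base string, and the match is a description, not a site shown to be used.

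The libraries of del held 2121796 to 3738720 counts and those of fl 6554423 to 9580630, so fl was on average 2.65 times as deep. Levels are given as CPM, the counts scaled to library size with TMM factors. Fold changes are del over fl on the log2 scale with standard errors, and a gene was called where edgeR's quasi-likelihood test gave a Benjamini-Hochberg adjusted p under 0.05. The host transcript Mir17hg had 167, 151 and 206 CPM in del and 252, 262 and 262 CPM in fl. It was called lower in del (log2 fold change -0.56 ± 0.15, adjusted p = 0.00844). Where its 3' reads lie relative to the floxed interval was not examined, so this value does not check the deletion. The B cell label was checked against 16 B cell markers, whose summed level was 1389 to 1580 CPM in del and 60.2 to 69.5 CPM in fl. Of the B cell markers 14 were tested and called higher in del, beside 32.5% of all genes tested. Of these, 9 met the count filter through del libraries only, so the count is given as a description. The other 5 met it in both groups. Ms4a1, which encodes CD20 of mature B cells, had 1 count over del and 2 over fl. Both groups are labelled B cell lymphoma. The 10 myeloid markers summed to 1370 to 1438 CPM in del and 56.9 to 69.5 CPM in fl, with Mpo at 0 in both groups. The largest parts of the del sum were Lyz2, Tyrobp and Itgam, at means of 453, 363 and 340 CPM in del and 0.371, 18.1 and 3.06 CPM in fl. Of 8 tested, 6 were higher in del and 2 lower, beside 32.5% of all genes called higher and 32.6% called lower. Of the 8, 2 met the count filter through del libraries only and 2 through fl libraries only. The 10 T and NK cell markers summed to 99.3 to 121 CPM in del and 38.5 to 42.7 CPM in fl, with Cd3e, Cd8a and Nkg7 at 0 in both groups and Cd3g, Cd4 and Lck at 0 in del. That sum was carried by Cd2, an adhesion receptor of lymphocytes, at 104.5 CPM in del and 13.1 CPM in fl. Of 3 T and NK cell markers tested 1 was higher in del (Cd2) and 2 lower, among them Cd5 at 3.29 CPM in del and 23.3 CPM in fl. The 2 lower ones met the count filter through fl libraries only. The 12 fibroblast markers, which feeder cells would carry, summed to 13.7 to 33.1 CPM in del and 2.06 to 8.20 CPM in fl, with Lum at 0 in both groups, Pdgfra and Postn at 0 in del and Thy1 at 0 in fl. In bulk RNA, fewer cells of a type and less RNA per cell cannot be told apart.

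**Figure D1:**
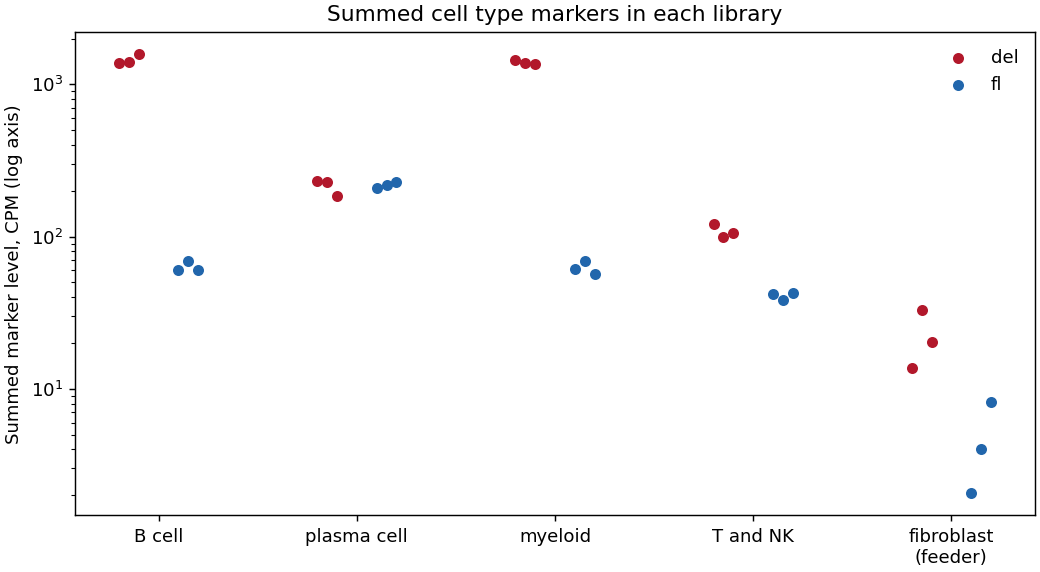
Summed level of each list of cell type markers, in CPM on a log axis, with 1 point per library (del red, fl blue). B cell sums were 1389 to 1580 CPM in del and 60.2 to 69.5 CPM in fl, and plasma cell sums, 184 to 231 CPM in del and 208 to 230.0 CPM in fl, overlapped.

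Receptors for BAFF and APRIL were higher in del where they were detected, while Cd40 and the death domain receptor Tnfrsf1a were lower. Tnfrsf1b was higher by less. Of the 5 receptors tested, 3 rose and 2 fell. Of all 10260 genes tested, 65.1% were called, 32.5% as higher and 32.6% as lower in del, so a call was common in this comparison. The del and fl libraries did not overlap for any of the 5, against 69.9% of all genes tested. Tnfrsf13c met the count filter through del libraries only and Cd40 and Tnfrsf1a through fl libraries only, so the counts of calls are given as a description. The part that other cells in the cultures had in these differences was not tested.

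**Figure D2:**
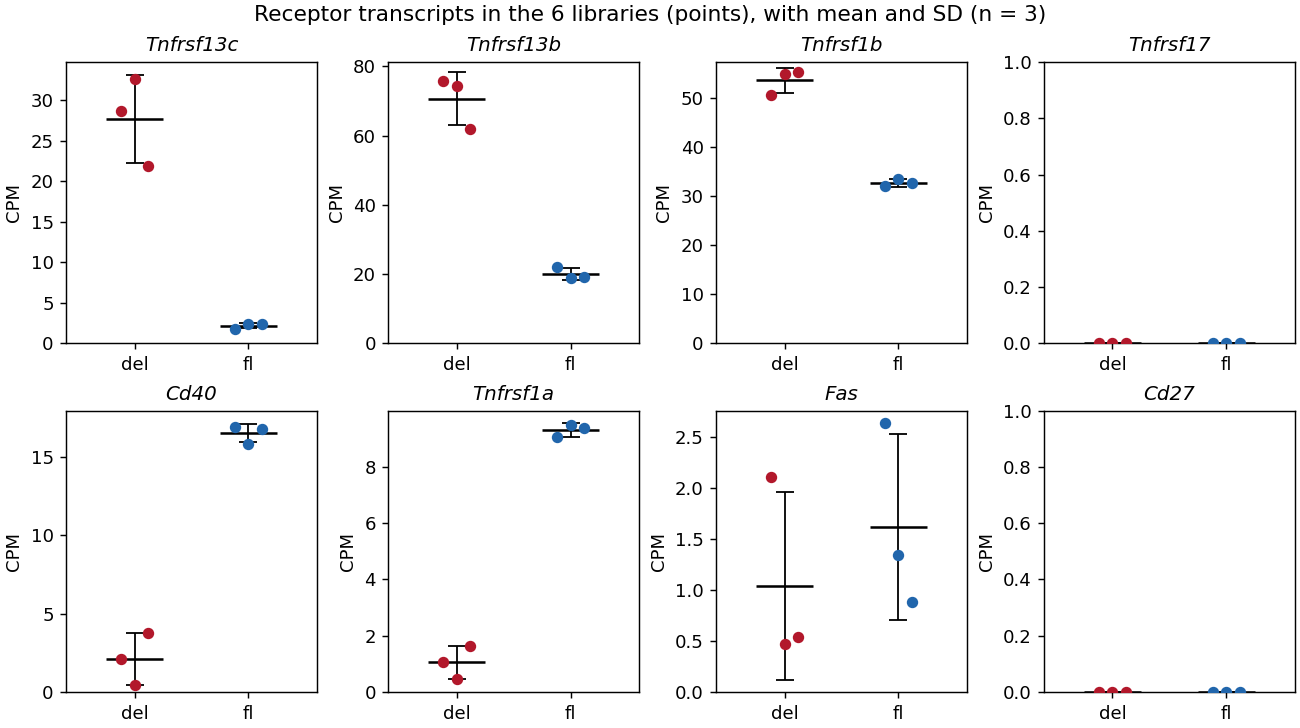
CPM of the 8 receptors in each library, with del (red) left of fl (blue). Bars give the mean and SD of 3 libraries, and each panel has its own linear axis. Tnfrsf13c, Tnfrsf13b and Tnfrsf1b were higher in every del library than in any fl library, Cd40 and Tnfrsf1a lower, Fas overlapped, and Tnfrsf17 and Cd27 had 0 counts.

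Tnfrsf13c (gene number 72049, chr15:82221742-82224380 on GRCm38.p6) encodes BAFF-R, the receptor through which BAFF sustains mature B cells. It had 109, 69 and 81 counts in del and 16, 21 and 16 counts in fl, or 28.7, 32.6 and 21.9 CPM in del and 1.83, 2.35 and 2.34 CPM in fl. The lowest del library thus stood far above the highest fl library. The means were 27.7 ± 5.45 CPM in del and 2.17 ± 0.296 CPM in fl (SD, n = 3 each), a log2 fold change of 3.65 ± 0.22 (95% interval 3.15 to 4.15, adjusted p = 1.7e-06). This was the largest fitted change among the 5 receptors tested.

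Tnfrsf13b (gene number 57916, chr11:61126283-61153170) encodes TACI, which binds both BAFF and APRIL and takes part in class switching. It had 75.7, 74.3 and 61.8 CPM in del and 22.1, 19.0 and 19.2 CPM in fl, from 157 to 288 counts a library in del and 131 to 193 in fl. All 3 del libraries were above all 3 fl libraries. It rose to 70.6 ± 7.65 CPM in del, against 20.1 ± 1.74 CPM in fl (SD, n = 3 each; log2 fold change 1.81 ± 0.15, adjusted p = 9.27e-06). In RefSeq the last 1390 bases of this gene (chr11:61151781-61153170) overlap Usp22, a deubiquitinase gene on the opposite strand, while its GENCODE 3' UTR ends before, at 61149372. Usp22 had 23.4, 18.4 and 23.2 CPM in del and 21.4, 28.04 and 27.7 CPM in fl (log2 fold change -0.23 ± 0.17, adjusted p = 0.261). Which strand setting was used for counting is unknown here, so reads in the overlap cannot be told apart.

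Tnfrsf17 (gene number 21935, chr16:11313232-11320074), which encodes the plasma cell receptor BCMA, had 0 counts in all 6 libraries. A count of 0 allows up to 0.312 CPM over the del group and 0.122 CPM over the fl group, counting error only. Of 4 plasma cell markers tested, 1 was higher in del, 2 were lower and 1 was not called, beside 65.1% of all genes called. Irf4, a transcription factor of plasma cell development, was at 33.4, 31.7 and 24.3 CPM in del and 3.55, 2.90 and 2.93 CPM in fl (log2 fold change 3.23 ± 0.20, adjusted p = 1.7e-06). Sdc1, the surface proteoglycan CD138, was at 16.0, 15.1 and 14.3 CPM in del and 29.5, 31.95 and 36.01 CPM in fl. Xbp1, a transcription factor of antibody secretion, was lower as well (log2 fold change -1.09 ± 0.15, adjusted p = 0.000221), and Mzb1, a chaperone of antibody assembly, averaged 138.6 CPM in del and 120.6 CPM in fl (adjusted p = 0.227).

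The balance between the BAFF receptors was also read within each library, where it does not depend on scaling. Tnfrsf13c made up 27.5% of the counts of Tnfrsf13c plus Tnfrsf13b in del replicate 1 (exact 95% binomial interval 23.1 to 32.1), 30.5% in del replicate 2 (24.6 to 37.0) and 26.1% in del replicate 3 (21.3 to 31.4). In fl it made up 7.66% (4.44 to 12.1), 10.99% (6.94 to 16.3) and 10.9% (6.35 to 17.1) in replicates 1, 2 and 3. No interval of a del library met one of an fl library. The log2 ratio of Tnfrsf13c to Tnfrsf13b averaged -1.36 ± 0.16 in del and -3.18 ± 0.32 in fl (SD, n = 3 each), a difference of 1.82. The exact two-sided permutation test gave p = 0.1 (0.1 adjusted over 3 pairs), the smallest that 3 against 3 libraries can give, with all 3 del ratios above all 3 fl ratios.

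**Figure D3:**
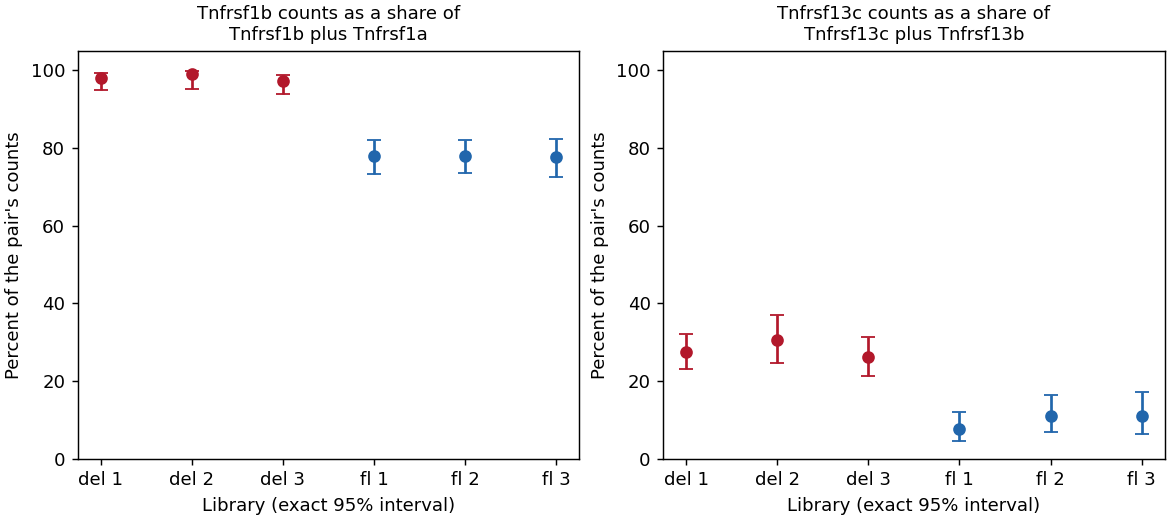
Counts of Tnfrsf1b as a percent of Tnfrsf1b plus Tnfrsf1a (left) and of Tnfrsf13c as a percent of Tnfrsf13c plus Tnfrsf13b (right), per library, with exact 95% binomial intervals. Both shares were higher in each del library than in each fl library, at 97.2% to 99.2% in del against 77.7% to 78.0% in fl on the left.

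Cd40 (gene number 21939, chr2:165055614-165071654), the receptor for CD40 ligand and the main receiver of T cell help in B cells, was lower in del. It had 8, 1 and 14 counts in del and 148, 142 and 115 counts in fl. This corresponds to 2.10, 0.473 and 3.78 CPM in del and 16.9, 15.9 and 16.8 CPM in fl. The del libraries spread widely, on 1 to 14 counts each, but all lay below every fl library. Cd40 fell to 2.12 ± 1.65 CPM in del, against 16.5 ± 0.594 CPM in fl (SD, n = 3 each; log2 fold change -2.80 ± 0.33, 95% interval -3.54 to -2.05, adjusted p = 7.89e-05). The B cell marker sum was 1389 to 1580 CPM in del and 60.2 to 69.5 CPM in fl. The myeloid sum was 1370 to 1438 CPM in del and 56.9 to 69.5 CPM in fl. Whether cell content had a part in the Cd40 difference was not tested.

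Cd27 (gene number 21940, chr6:125232620-125237136), the receptor for CD70 and a marker of memory B cells in humans, had 0 counts in every library, with the same upper limits as Tnfrsf17. Neither its presence below 0.312 CPM in del nor below 0.122 CPM in fl could be seen at this depth.

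Tnfrsf1a (gene number 21937, chr6:125349723-125362483) encodes TNF receptor 1, the death domain receptor for TNF found on most cell types. It had 4, 1 and 6 counts in del and 79, 85 and 64 counts in fl, or 1.05, 0.473 and 1.62 CPM in del and 9.04, 9.50 and 9.37 CPM in fl. The groups lay well apart. It fell to 1.05 ± 0.573 CPM in del, against 9.30 ± 0.233 CPM in fl (SD, n = 3 each; log2 fold change -3.01 ± 0.31, 95% interval -3.70 to -2.31, adjusted p = 3.56e-05).

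Tnfrsf1b (gene number 21938, chr4:145212368-145246870), which encodes TNF receptor 2 of immune and endothelial cells, moved the other way. It had 50.7, 54.9 and 55.3 CPM in del and 32.1, 33.6 and 32.6 CPM in fl, with 116 to 205 counts a library in del and 223 to 301 in fl. Each group was tight and the groups did not overlap. It rose to 53.6 ± 2.52 CPM in del, against 32.8 ± 0.796 CPM in fl (SD, n = 3 each; log2 fold change 0.71 ± 0.12, adjusted p = 0.000811). Over all genes tested the median absolute log2 fold change was 0.75.

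Among counts of the TNF receptors, Tnfrsf1b took 98.0% in del replicate 1 (exact 95% interval 94.9 to 99.4), 99.2% in del replicate 2 (95.3 to 99.98) and 97.2% in del replicate 3 (93.9 to 99.0). In fl the share was 78.0% (73.3 to 82.2), 78.0% (73.5 to 82.0) and 77.7% (72.4 to 82.4) in replicates 1, 2 and 3. The share was nearly the same in the 3 fl libraries and higher in each del library. The log2 ratio of Tnfrsf1b to Tnfrsf1a averaged 5.56 ± 0.66 in del and 1.81 ± 0.01 in fl (SD, n = 3 each), a difference of 3.75 (exact two-sided permutation p = 0.1, 0.1 adjusted over 3 pairs, the smallest possible). These shares compare groups for 1 pair of genes and do not rank the genes by abundance.

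Fas (gene number 14102, chr19:34290647-34327775), the death receptor for Fas ligand, was too low to be tested with all genes. It had 8, 1 and 2 counts in del and 23, 12 and 6 counts in fl, or 2.10, 0.473 and 0.540 CPM in del and 2.63, 1.34 and 0.878 CPM in fl. The groups overlapped. An exact two-sided permutation test of the CPM values gave p = 0.5, and the pooled ratio of fl over del was 1.46 with a 95% counting interval of 0.739 to 3.16. With no count filter, edgeR gave a log2 fold change of -0.59 ± 0.61 (adjusted p = 0.449). No difference in Fas was therefore detected at this depth, and the counting interval included both directions. The log2 ratio of Fas to Tnfrsf1a was 0.92, 0.00 and -1.38 in del and -1.76, -2.77 and -3.31 in fl, a difference of 2.46 (exact two-sided permutation p = 0.1, 0.1 adjusted over 3 pairs). All 3 del ratios were above all 3 fl ratios, on 11 Fas and 11 Tnfrsf1a counts in del as a whole.

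The promoters of the receptors were read from 250 bases before to 50 bases after the RefSeq start on GRCm38.p6. A window was found for 7 of the 8 receptors but not for Cd40, so no motif statement here covers Cd40. On both strands, the E-box CAGGTG that E2A binds, E2A being a basic helix-loop-helix factor of B cell development, occurred in 2 of the 7, those of Tnfrsf13c and Tnfrsf1b, and in 20.2% of all 32851 windows. Tnfrsf13c, Tnfrsf1b and Tnfrsf13b were all higher in del, and the Tnfrsf13b window held none of the motifs searched. Whether a motif had a part in these differences was not tested. The windows of Tnfrsf13c and Tnfrsf1b are printed on the gene's strand with motif matches in capitals.
Tnfrsf13c, chr15:82224331-82224630, minus strand: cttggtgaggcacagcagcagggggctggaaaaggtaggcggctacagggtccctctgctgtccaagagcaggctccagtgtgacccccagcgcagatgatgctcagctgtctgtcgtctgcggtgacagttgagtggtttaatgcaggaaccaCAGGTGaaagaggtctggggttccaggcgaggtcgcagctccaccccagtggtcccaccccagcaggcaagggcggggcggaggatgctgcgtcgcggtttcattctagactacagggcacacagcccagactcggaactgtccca
Tnfrsf1b, chr4:145246821-145247120, minus strand: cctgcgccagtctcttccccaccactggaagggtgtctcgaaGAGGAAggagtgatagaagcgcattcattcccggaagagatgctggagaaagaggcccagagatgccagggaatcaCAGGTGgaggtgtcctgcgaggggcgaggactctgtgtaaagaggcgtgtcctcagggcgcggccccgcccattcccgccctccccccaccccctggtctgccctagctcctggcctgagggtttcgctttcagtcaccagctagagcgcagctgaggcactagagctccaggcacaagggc
The first capitals in the Tnfrsf1b window are GAGGAA, the core bound by PU.1, an ETS factor of B and myeloid cells, which also occurred in the Tnfrsf17 window and in 28.3% of all windows. The E-box CACGTG of MYC and MAX occurred in the Fas window alone among the 7 and in 7.15% of all windows. The EBF1 core CCCNNGGGA (6.56% of all windows) and the kappa B motif (8.46%) had no match in the 7. No 2 of these matches overlapped, and a match says only that the letters are there.

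Ligands for these receptors were mostly undetected. BAFF (Tnfsf13b) had 3 counts over del and 3 over fl, and Cd40lg had 2 counts over del and 0 over fl. APRIL (Tnfsf13), Cd70 and Fasl had 0 counts in every library. Tnf itself was at 34.4, 30.7 and 36.4 CPM in del and 36.2, 39.5 and 35.0 CPM in fl, with overlapping groups (log2 fold change -0.12 ± 0.14, adjusted p = 0.466, 95% interval -0.42 to 0.19). Lta, which encodes lymphotoxin alpha, a soluble ligand of both TNF receptors, had 12.4, 13.7 and 19.2 CPM in del and 0.343, 0.223 and 0.732 CPM in fl (log2 fold change 5.14 ± 0.37, adjusted p = 4.37e-06). Ltb, the membrane partner of lymphotoxin alpha, had 2.10, 0.473 and 2.43 CPM in del and 19.7, 16.1 and 10.98 CPM in fl (log2 fold change -3.07 ± 0.39, adjusted p = 0.00012). Lta and Ltb thus moved in opposite directions, each with no overlap between groups, as for 69.9% of all genes tested. Lta met the count filter through del libraries only and Ltb through fl libraries only, so these directions are given as a description. Of these 8 ligands, 3 were tested, 1 rose and 1 fell, beside 32.5% of all genes called higher and 32.6% called lower. Their median log2 fold change was -0.12, beside -0.003 for all genes tested.

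Of 10 other ligands of the superfamily 3 were tested and 2 rose, beside 32.5% of all genes called higher. Of the 3, 1 met the count filter through del libraries only. Tnfsf14, the ligand LIGHT, rose to 8.33 CPM in del, against 0.575 CPM in fl (log2 fold change 3.85 ± 0.39, adjusted p = 3.11e-05). Tnfsf8, the CD30 ligand, rose to 10.2 CPM in del, against 2.15 CPM in fl (log2 fold change 2.18 ± 0.27, adjusted p = 0.000102). Tnfsf9, the 4-1BB ligand, was at 10.05 CPM in del and 11.8 CPM in fl (adjusted p = 0.33).

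Most of the other receptors of the superfamily that could be tested were lower in del. Of 20 listed, 9 were tested, 8 fell and 0 rose in edgeR, beside 32.6% of all genes called lower and 32.5% called higher. DESeq2 also gave 0 rises. The median log2 fold change was -1.25. All 9 fitted values were below 0, so a looser threshold could add no rise. Of the 9, 5 met the count filter through fl libraries only, so these counts and the median are given as a description. Tnfrsf9, the activation receptor 4-1BB, had 2 counts over del, and 32.9, 33.2 and 30.9 CPM in fl, a ratio of fl over del of 156 (95% counting interval 43.05 to 1290). Tnfrsf8 (CD30) and Tnfrsf18 (GITR), which are also induced on activated lymphocytes, each had 1 count over del, with ratios of fl over del of 31.0 (5.41 to 1240) and 24.7 (4.28 to 992). Tnfrsf12a, the receptor for TWEAK, had 4.73, 5.20 and 5.13 CPM in del and 37.3, 46.8 and 48.6 CPM in fl (log2 fold change -3.14 ± 0.19, adjusted p = 1.69e-06). Tnfrsf26 and Tnfrsf22, close relatives of each other, fell by smaller amounts (log2 fold changes -0.71 ± 0.14 and -1.25 ± 0.26, adjusted p = 0.0017 and 0.00229). Reads shared between such relatives may have been split in a way that the labels do not record, so their levels are uncertain. The count of rises was 0 here but 2 with no count filter, namely Tnfrsf14 (HVEM, 25 counts over del and 2 over fl) and Tnfrsf19 (7 counts over del and 0 over fl). Without del replicate 2, Tnfrsf14 was the 1 that rose. With a filter of 10 CPM 4 of them fell, and with libraries thinned to the same total 5 fell.

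**Figure D4:**
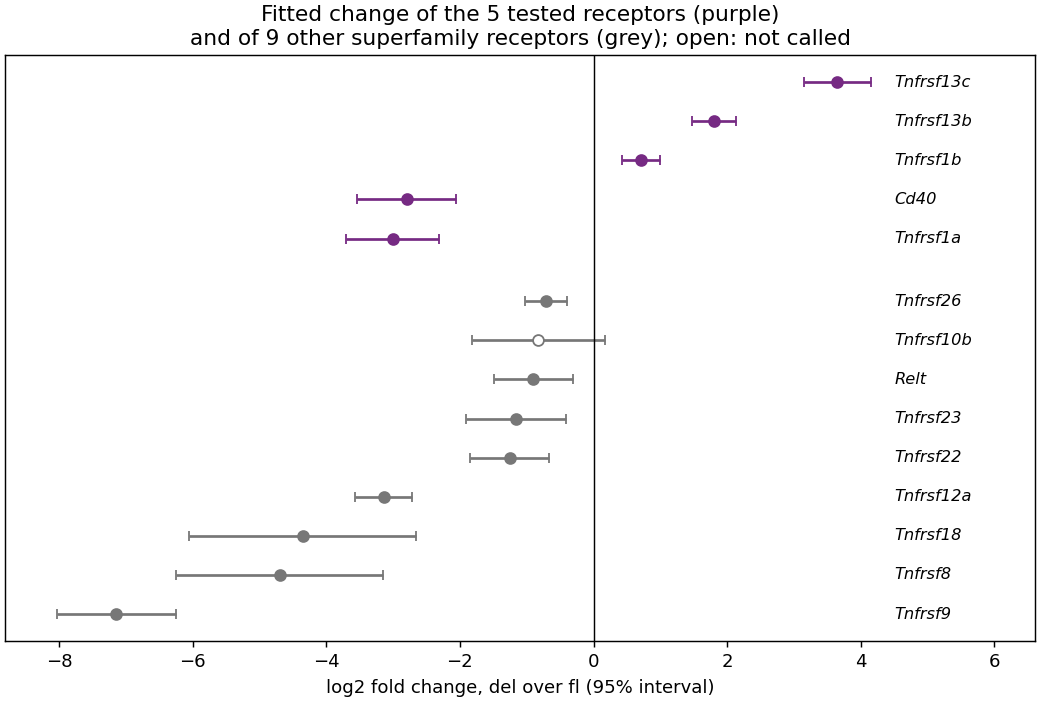
Fitted log2 fold change, del over fl, with 95% intervals, for the 5 tested receptors described here (purple) and 9 other tested receptors of the superfamily (grey). Filled points passed an adjusted p of 0.05. The purple points run from 3.65 for Tnfrsf13c to -3.01 for Tnfrsf1a, and all grey points are below 0; fitted values of Tnfrsf8, Tnfrsf9 and Tnfrsf18 rest on 1 or 2 counts in del and are no bounds.

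Of 12 tested adaptors of these receptors, 3 rose and 5 fell (median log2 fold change -0.03), close to the 65.1% of all genes called. Fadd, which fell, is also counted with the death-inducing complex. Of the 12, 1 (Traf5) met the count filter through del libraries only and 1 (Traf1) through fl libraries only. The counts of calls are therefore given as a description. Traf3, which holds the BAFF-R and CD40 pathway to NF-kB in check, rose to 36.1 ± 9.0 CPM in del, against 16.8 ± 1.35 CPM in fl (SD, n = 3 each; log2 fold change 1.13 ± 0.19, adjusted p = 0.000607). Traf5, an adaptor of Cd40 and Cd27 signalling, rose (log2 fold change 2.25 ± 0.27, adjusted p = 8.43e-05), as did Traf3ip3, which encodes a partner of TRAF3 (2.17 ± 0.21, adjusted p = 2.5e-05). Traf1, an adaptor that NF-kB induces and that joins Tnfrsf1b complexes, had 2.63, 1.89 and 2.16 CPM in del and 22.2, 23.0 and 24.6 CPM in fl (log2 fold change -3.34 ± 0.20, adjusted p = 1.71e-06). Tradd, the first adaptor of Tnfrsf1a, fell to 16.8 CPM in del, against 33.2 CPM in fl (log2 fold change -1.003 ± 0.20, adjusted p = 0.00168), and Traf4 fell as well (-1.27 ± 0.26, adjusted p = 0.00218). Traf2, which Tnfrsf1a and Tnfrsf1b both use, had 16.3, 22.2 and 15.9 CPM in del and 13.2, 17.1 and 16.98 CPM in fl (adjusted p = 0.424).

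Of 10 tested genes of the death-inducing complex below Fas and Tnfrsf1a, 7 were called lower in del and 2 higher, with a median log2 fold change of -0.85, beside 32.6% of all genes called lower and 32.5% called higher. The number lower was 5 with DESeq2, 5 with a replicate block and 5 to 7 with a library left out. Of the 10, 1 (Ripk3) met the count filter through fl libraries only. Ripk3, the kinase that starts necroptosis, had 3 counts over del, and 15.9, 20.1 and 19.5 CPM in fl, a ratio of fl over del of 59.1 (95% counting interval 20.1 to 288). Its substrate Mlkl, the pore-forming protein of necroptosis, fell to 18.3 CPM in del, against 71.1 CPM in fl (log2 fold change -1.95 ± 0.21, adjusted p = 5.02e-05). Ripk1, the kinase recruited to Tnfrsf1a, rose to 54.6 CPM in del, against 17.97 CPM in fl (log2 fold change 1.61 ± 0.16, adjusted p = 3.32e-05). Bid, which links the receptors to mitochondria, fell to 76.4 CPM in del, against 152.9 CPM in fl (log2 fold change -0.999 ± 0.14, adjusted p = 0.000202). Casp8, the initiator caspase, was at 90.4, 83.7 and 124 CPM in del and 132, 113 and 111 CPM in fl (adjusted p = 0.232).

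Of 16 tested kinases and ubiquitin enzymes that lead from the receptors to NF-kB, 6 rose, 2 fell and 8 were not called (median log2 fold change 0.30), beside 65.1% of all genes called. The number that rose was 3 to 7 over all alternatives. It was 3 without del replicate 3, 3 without fl replicate 2 and 3 with upper-quartile factors. Tab2, which joins ubiquitin chains to the kinase TAK1, rose to 185 CPM in del, against 75.4 CPM in fl (log2 fold change 1.29 ± 0.18, adjusted p = 0.000231). Cyld, a deubiquitinase that restrains the pathway, rose by 0.90 ± 0.20 and Birc2, the ubiquitin ligase cIAP1 of TNF receptor complexes, by 0.78 ± 0.20 on the log2 scale (adjusted p = 0.00312 and 0.00619). Ikbkg, which encodes NEMO, the regulatory subunit of the IkB kinase, rose by 0.51 ± 0.16 (adjusted p = 0.0199). Rbck1, a subunit of the linear ubiquitin ligase, fell to 39.9 CPM in del, against 75.7 CPM in fl (log2 fold change -0.92 ± 0.12, adjusted p = 0.000158), and Otulin, which removes linear ubiquitin, was lower too (-0.53 ± 0.12, adjusted p = 0.00397).

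**Figure D5:**
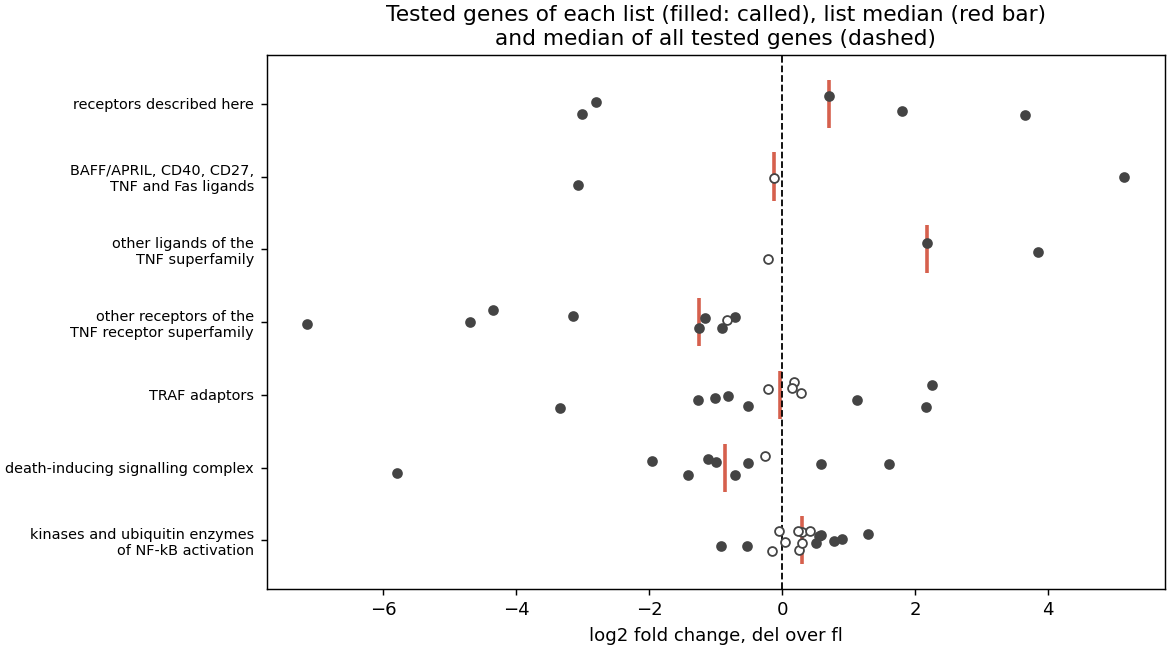
Log2 fold change, del over fl, of every tested gene of each list. Filled points passed an adjusted p of 0.05, the red bar is the list's median and the dashed line the median of all genes tested. The other receptors lie below 0 (median -1.25), while kinases and ubiquitin enzymes cluster near it (median 0.30).

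Genes whose pattern over the 6 libraries was most like each tested receptor were ranked by the root mean square difference of centred log2 CPM, among tested genes of similar mean level. Nearest to Tnfrsf13c, among 2759 candidates, were Nfam1, which encodes an ITAM receptor of B and myeloid cells (difference 0.08), P2ry6, a nucleotide receptor gene (0.22), and C3ar1, the complement C3a receptor gene (0.23). Nearest to Tnfrsf13b, among 3747, were Rnf111 (0.07), Pkig (0.11) and Ipmk (0.11), which encode a ubiquitin ligase, an inhibitor of protein kinase A and an inositol phosphate kinase. Nearest to Tnfrsf1b, among 3663, were Gna12 (0.06), Zfp397 (0.06) and Edem1 (0.07). Nearest to Cd40, among 2321, were the ligand gene Ltb (0.31), Reep6 (0.35) and Sgsm1 (0.36). Sgsm1 (0.15) and Reep6 (0.21) were also near Tnfrsf1a, with Tmem38a (0.15), among 1741. The likeness mainly reflects the step between groups, since 6 libraries in 2 groups hold little else.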

How the data were processed

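RNA had been primed with barcoded oligo-dT and sequenced from 3' ends in strand-specific libraries, per the labels' protocols. The authors deposited raw read counts per gene. STAR, HTSeq and mm10 are named in the submitters' processing notes, but their versions and options are not recorded there. Gene numbers were matched to symbols through the RefSeq table of GRCm38.p6 (23969 of 24052), and 833 rows carry RefSeq accessions, none of them a transcript of the 8 receptors.

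All genes were fitted with edgeR 4.0.16 under R 4.3.3: filterByExpr by group, TMM scaling, and a robust quasi-likelihood fit of group alone, tested by F. P-values were adjusted by Benjamini-Hochberg over the 10260 genes tested, at a threshold of 0.05. Every adjusted p of a gene is from this test unless another setting is named, as for Fas with no count filter. Standard errors came from the F statistic. The filter asked for about 1.94 CPM in 3 libraries. Ratios within libraries used counts plus 0.5, and pairs with Tnfrsf17 or Cd27 gave none. A group with 1 to 3 counts is given as a ratio with an exact 95% counting interval, and a 0 as the limit that 3 counts allow. Intervals cover counting error only, since PCR copies are not independent molecules. DESeq2 1.42.0 was an alternative. No pair of replicates agreed within sampling noise (chi-square per degree of freedom 6.93 to 28.9).

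Named genes were the 8 receptors, their cognate ligands, up to 6 genes of each list by smallest adjusted p, and the 3 genes of most similar pattern for each tested receptor; some of these are not reported here. Tnfrsf14, Tnfrsf19, Usp22, Traf2, Casp8 and Ms4a1 were named after their values were seen. Receptors and lists were chosen with earlier results of these data known. Promoter and UTR windows were searched for exact letters.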

Additional observations from a re-analysis of the deposited data

How the results depend on the processing

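The log2 fold changes of the 5 tested receptors kept their direction and their side of the threshold under every alternative that could be fitted: RLE, upper-quartile or no scaling factors, no count filter, at least 10 CPM in 3 libraries, DESeq2, a replicate block, libraries thinned to 2121796 counts, and each library left out. Tnfrsf1a was under the 10 CPM filter, so that 1 of the receptors instead of 2 was called lower there. Across all alternatives the log2 fold change was 3.14 to 3.80 for Tnfrsf13c, 1.68 to 2.01 for Tnfrsf13b, 0.58 to 0.77 for Tnfrsf1b, -3.44 to -2.49 for Cd40 and -3.43 to -2.79 for Tnfrsf1a, with adjusted p of at most 0.00433. With each library left out in turn, Fas differed by -1.10 to -0.24 on the log2 CPM scale. Upper-quartile factors shifted all genes by -0.13 (log2), and the NF-kB list then had 3 rises. Under the 10 CPM filter 0 of the other ligands rose and 4 of the other receptors fell, and in thinned libraries 5 of the other receptors fell. With no count filter 2 of the other receptors rose. With a library left out, 0 to 1 of the other receptors rose and 6 to 8 fell, and 3 to 6 of the NF-kB list rose. Filters change which genes are tested and a left-out library the number of libraries; for the other shifts in counts the cause was not tested. Same-numbered libraries of del and fl deviated together weakly or not at all (r of 0.08, -0.04 and -0.02 over genes), so the numbers do not pair them. The replicate block gave 3295 genes higher and 3215 lower, against 3333 and 3343 without it, and changed no call of a receptor (Cd40 -2.85, Tnfrsf1b 0.71). Depth limits Fas, Cd40 and Tnfrsf1a in del, at 1 to 14 counts a library, and Cd27 and Tnfrsf17, at 0 counts.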
